A study of Homo sapiens with 12 samples.

Results

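Untreated HaCaT cells labelled as VDR knockout were compared with untreated wild type HaCaT cells across all counted genes. HaCaT is an immortalised line of human keratinocytes, the main cells of the epidermis. The comparison used 6 of the 12 libraries of the series, 3 of each genotype, chosen by their labels alone. Neither group received 1,25(OH)2D3, the hormone made from vitamin D, which was given to the cells of the other 6 libraries. Both groups were grown in serum-containing medium in multiwell plates, and total RNA was extracted. How RNA was selected for the libraries is not given. The edit, the number of knockout clones and whether a control clone was taken through the same procedure are not stated in the labels, so an effect of the knockout and a difference between clones cannot be told apart. The labels do not say whether the 3 libraries of a genotype came from separate cultures, and p-values then measure only the spread between these libraries.

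VDR encodes the vitamin D receptor, a nuclear receptor that pairs with a retinoid X receptor on DNA. Bound to hormone, the pair recruits coactivators, and without hormone it can hold corepressors at some genes. In skin the receptor takes part in keratinocyte differentiation and in the hair cycle, and part of its role in hair does not need the hormone.

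Total counts were 11.49 to 12.21 M (M, 1e6 counts) in wild type and 12.61 to 15.99 M in knockout libraries. Levels are given as CPM, counts per 1e6 counts of the library. Wild type replicate 3 stood apart. On the second principal component of log2 CPM over these 6 libraries, which holds 6.99% of the variance, it lay at 31.8, against -15.7 and -10.7 for wild type replicates 1 and 2. The first component, with 79.9%, separated the genotypes, with wild type from -59.5 to -39.2 and knockout from 48.1 to 54.5. The summed level of 10 keratinocyte markers, all of them counted, was 2890 to 3490 CPM in wild type and 1580 to 1720 CPM in knockout cells, and 1 of them was higher and 8 lower in knockout cells, where 35.5% and 34.2% of all genes tested were. In bulk RNA fewer cells of a kind and less RNA per cell cannot be told apart. Markers of other cell types were few. Of 7 fibroblast markers 3 were in the count table used here, with a summed level of 4.01 to 20.2 CPM in wild type and 4.35 to 4.81 CPM in knockout cells. The highest of these values was wild type replicate 3, where COL1A1 stood at 17.4 CPM. Of 5 melanocyte markers 2 were counted (9.58 to 10.3 CPM in wild type, 15.7 to 19.4 CPM in knockout), of 4 endothelial markers 1 (2.56 to 5.65 and 4.5 to 5.71 CPM), of 5 immune markers 1, CD68 (6.94 to 11.8 and 4.38 to 5.71 CPM), and of 4 neuroendocrine markers 2 (3.55 to 4.44 and 3.75 to 4.08 CPM). No listed marker was at 0 in all 6 libraries, while PTPRC, PECAM1, TYR, DCN and CHGA, which define those types, are not analysed here. The part of other cell types in the results was not tested.

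More than 2 in 3 of all tested genes differed between the genotypes. Of 14676 genes tested, 5207 (35.5%) were higher and 5019 (34.2%) lower in knockout cells at an adjusted p below 0.05 (edgeR quasi-likelihood test, Benjamini-Hochberg). At least 2-fold, 1464 genes (9.98%) were higher and 1376 (9.38%) lower, and 51.5% of these were higher. With library size alone as the scaling, which moved the median log2 fold change of all genes by 0.12, 62.9% of the genes called at least 2-fold were higher. On counts simulated for this comparison, 46 of 67 genes changed 1.5-fold, 64 of 67 changed 2-fold and 64 of 66 changed 4-fold were called, with 12 false calls among 14676 genes. The simulated libraries held no other genotype difference, no GC trend and no library that stood apart. Genes of low counts were not among those changed. The real libraries differ in each of these points, so the simulated rates are not the error rates of this comparison.

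The fold change followed the GC content of the transcripts. Across 11754 protein-coding genes, which are not independent replicates, Spearman's rho of the log2 fold change with transcript GC was -0.46. The median log2 fold change was 0.34 in the decile of lowest GC and -0.69 in the decile of highest GC, and 12 genes of the first and 372 of the second were at least 2-fold lower. The libraries of the genotypes leaned opposite ways: the top minus the bottom GC decile was 0.65, 0.71 and 0.18 in wild type replicates 1, 2 and 3 and -0.51, -0.40 and -0.61 in the knockout libraries, on a log2 scale relative to the mean of the 6. The trend moved with genotype, so a difference of the libraries' preparation and one of the cells cannot be told apart here. A second fit, chosen after these values were seen, took the GC trend out of each library. It called 1484 genes (10.1%) at least 2-fold higher and 895 (6.1%) at least 2-fold lower, and 62.4% of its 2-fold calls were higher. It shared 1195 of the 1464 higher calls (81.6%, and 80.5% of its own) and 798 of the 1376 lower calls (58%, and 89.2% of its own). Values from that fit are given beside the first as values with the GC trend removed. Where a gene below has a pair of values in brackets joined by "and", the second is with the trend removed, which moved the fold by over 1.5 times.

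**Figure D1:**
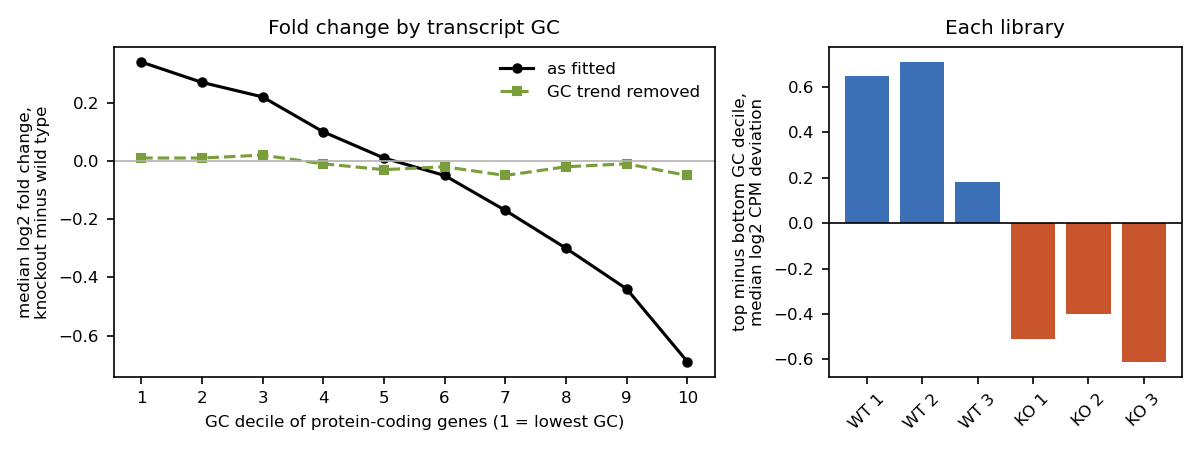
The left panel plots the median log2 fold change (knockout minus wild type) of protein-coding genes in 10 groups of rising transcript GC, as fitted and with the GC trend removed; the right panel plots, for each of the 6 libraries, the median deviation of log2 CPM in the top minus the bottom GC decile. The fitted medians go from 0.34 to -0.69, all 3 wild type bars (0.65, 0.71, 0.18) lie above 0 and all 3 knockout bars (-0.51, -0.40, -0.61) below it.

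Genes of the vitamin D system were mostly lower in the cells labelled as knockout. VDR itself (chr12:47841537-47943048 on GRCh38) was counted at 103, 107 and 99.7 CPM in the wild type libraries and at 73.1, 81.1 and 78.7 CPM in the knockout libraries. The groups did not overlap, and VDR was lower with a log2 fold change of -0.41 ± 0.07 (SE, n = 3 per group; adjusted p = 5.03e-05), or -0.24 with the GC trend removed. Since an edit can end the protein and leave the RNA, and its site is not given, this level does not check the label. RXRA, the partner receptor, stood at 269, 254 and 245 CPM in wild type and 76.7, 79.5 and 96.5 CPM in knockout cells, a fall of more than 2-fold (-1.60 ± 0.11, adjusted p = 1.50e-09; -1.14 with the GC trend removed). CYP24A1, whose enzyme inactivates the hormone and which is the best known target of the receptor, was at 51.3, 46.3 and 46.4 CPM against 21, 11.6 and 18 CPM (-1.50 ± 0.15, adjusted p = 3.29e-07). CYP27B1, whose enzyme makes the hormone, was at 10, 9.51 and 9.97 CPM against 4.77, 4.05 and 4.5 CPM (-1.14 ± 0.17, adjusted p = 1.13e-05). With the GC trend removed it stood at -0.88, a fall of less than 2-fold. Of 15 tested genes of the receptor, its metabolism and its coregulators, 2 were higher (1 without knockout replicate 2 or wild type replicate 1) and 8 lower. The shares of all genes tested were 35.5% and 34.2%. The median log2 fold change of the 15 was -0.30, against 0.01 over all genes tested.

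Textbook targets of the hormone were called in both directions in these untreated cells. Of 20 tested, 9 were higher and 6 lower (35.5% and 34.2% of all genes were). DUSP10, a phosphatase that switches off stress kinases, was at 36.6, 36 and 42.2 CPM in wild type and 268, 255 and 293 CPM in knockout cells, 7.1-fold higher (2.83 ± 0.09, adjusted p = 3.58e-13). The calcium channel gene TRPV6 (2.11 ± 0.31) and the semaphorin gene SEMA6D (1.46 ± 0.21) were higher as well. THBD, the surface receptor of thrombin (-1.31 ± 0.14), and IGFBP3, which binds insulin-like growth factors (-0.91 ± 0.13), were lower. In these cells, CYP24A1 and DUSP10, both raised by the hormone in the textbook account, thus stood on opposite sides of wild type.

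TRIM31, TAGLN and GJB6 were among the genes furthest apart between the genotypes. TRIM31, a ubiquitin ligase of the tripartite motif family (chr6:30102897-30113106, minus strand), was at 2.41, 1.37 and 3.63 CPM in wild type and 135, 107 and 143 CPM in knockout cells. Every knockout library was far above every wild type library, a 51.4-fold difference (log2 fold change 5.68 ± 0.21, adjusted p = 5.91e-11; 5.71 with the GC trend removed). The counted neighbours of TRIM31, looked up after its value was seen, differed by far less: TRIM26 (0.60 ± 0.08) and RNF39 (0.43 ± 0.12) were higher and PPP1R11 did not pass (-0.03 ± 0.11).

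TAGLN encodes transgelin, an actin-binding protein of smooth muscle and of spread cells (chr11:117199321-117204782). Its level was 24.3, 21.3 and 13.7 CPM in wild type and 0.193, 0.0751 and 0.12 CPM in knockout cells, so it was nearly absent from all 3 knockout libraries (-7.13 ± 0.32, adjusted p = 2.14e-11). GJB6 encodes connexin 30, a gap junction channel of epidermis and inner ear (chr13:20221962-20232395). It was at 5.17, 4.2 and 2.7 CPM in wild type, from 138 counts over the 3 libraries, and had no count in any knockout library. With 3 counts over the group as the floor for counting error, GJB6 was at least 60.9-fold lower. GJB2, which encodes connexin 26 and lies beside GJB6 on chromosome 13, went from 91.2, 86.8 and 46.9 CPM to 9.86, 10.4 and 8.77 CPM (-2.95 ± 0.22, adjusted p = 5.13e-07). In wild type replicate 3 the levels of TAGLN, GJB6 and GJB2 were the lowest of their group, and none overlapped the knockout libraries.

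**Figure D2:**
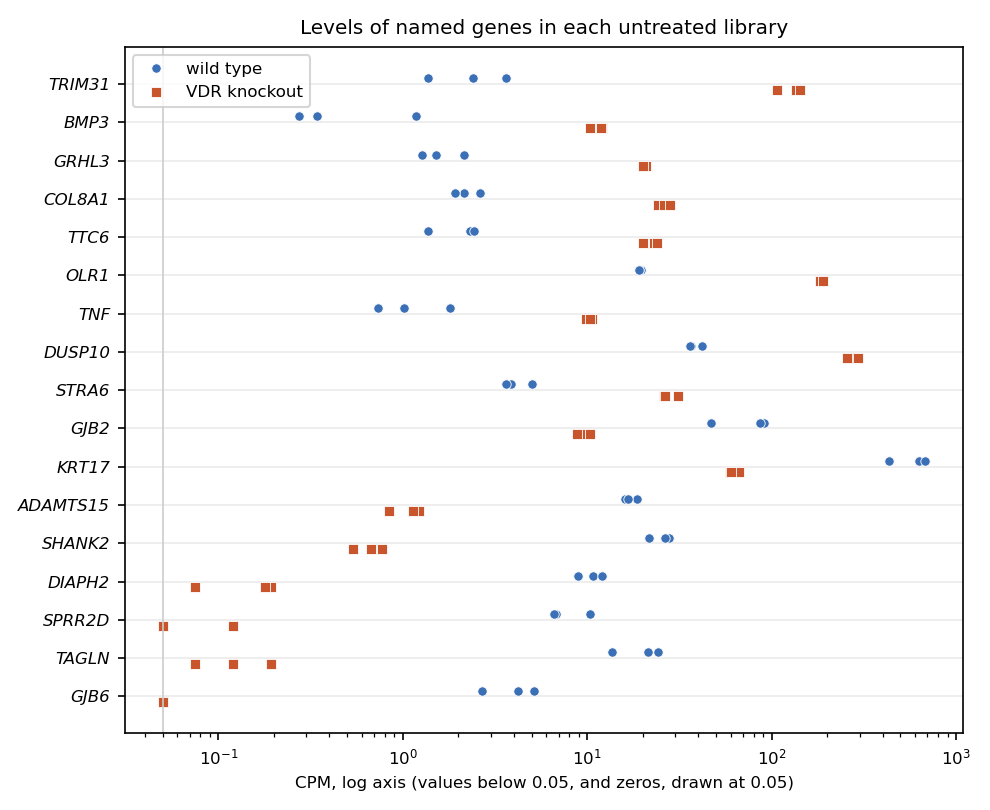
Each row is 1 gene, circles are the 3 wild type libraries and squares the 3 VDR knockout libraries, on a log axis of CPM with values below 0.05, including zeros, drawn at 0.05. In each of the genes shown the groups do not overlap, from TRIM31 (2.47 against 129 CPM on average) to GJB6, with no knockout count.

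The stretch just before the start of TRIM31 was searched for the half-sites that nuclear receptors of this family bind. It is shown because that search found a spacing shared with a pair of retinoid genes. The promoters shown were thus picked by this spacing and by their fold changes. The promoters are RefSeq's on GRCh38.p14, of which the table used here holds none for VDR, CYP24A1, CYP27B1, TAGLN or KRT17. In the 250 bases before each start, both strands were searched for the consensus half-site AGGTCA and for 3 close forms of it seen in known response elements. The first of these forms was AGTTCA. The next form searched was GGGTCA. The last form searched was GGTTCA. The 3 promoters with a pair of half-sites in 1 direction and 5 bases between them, at genes that were at least 2-fold higher, are shown with every match in capitals (a match on the other strand shows as its reverse complement), 5′ to 3′ along the gene's own strand. RARB has 4 starts in that table and CYP26A1 2, and only the start with the pair is shown for each.
TRIM31 promoter, chr6:30113091-30113340, minus strand: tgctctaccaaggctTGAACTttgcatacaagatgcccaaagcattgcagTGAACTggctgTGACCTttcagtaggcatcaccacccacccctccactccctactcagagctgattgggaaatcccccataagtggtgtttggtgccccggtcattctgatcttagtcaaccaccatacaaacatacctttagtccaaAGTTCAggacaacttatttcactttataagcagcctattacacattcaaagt
RARB promoter, chr3:25428013-25428262, plus strand: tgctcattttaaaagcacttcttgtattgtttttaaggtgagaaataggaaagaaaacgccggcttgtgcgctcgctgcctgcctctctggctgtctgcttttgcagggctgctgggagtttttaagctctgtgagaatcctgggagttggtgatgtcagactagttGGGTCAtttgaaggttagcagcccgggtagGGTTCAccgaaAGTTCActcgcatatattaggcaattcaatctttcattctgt
CYP26A1 promoter, chr10:93073643-93073892, plus strand: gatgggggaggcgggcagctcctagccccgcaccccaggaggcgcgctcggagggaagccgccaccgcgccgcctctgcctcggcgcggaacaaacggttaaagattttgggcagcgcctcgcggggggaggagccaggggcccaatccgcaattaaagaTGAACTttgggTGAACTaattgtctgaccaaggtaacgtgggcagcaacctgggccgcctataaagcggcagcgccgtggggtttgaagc

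In TRIM31 the paired matches lie 200 to 195 and 189 to 184 bases before the start, both on the strand opposite to the gene, with 2 further matches at 235 to 230 and 52 to 47. In RARB they lie 53 to 48 and 42 to 37 bases before the start on the gene's strand, with a further match at 83 to 78, and in CYP26A1 90 to 85 and 79 to 74 on the opposite strand. At least 1 half-site is common, found in 33.8% of all 35116 windows, in 28.4% of the windows of tested genes, in 32.7% of those of genes at least 2-fold higher and in 28.4% of those of genes at least 2-fold lower. A pair with 5 bases between was found in 26 of 35116 windows (0.074%), of 24 genes, of which 17 were not tested here. Of the 7 tested, CYP26A1 (5.76), TRIM31 (5.68) and RARB (3.24) were at least 2-fold higher, as 9.98% of all genes tested were. With 1 count in wild type and 94 in knockout, CYP26A1 reached the count filter among these libraries through the knockout alone. So did RARB, with a mean of 0.374 CPM in wild type and 3.67 CPM in knockout libraries. The count of higher genes is therefore no test of the spacing. PRSS27, a serine protease gene, was lower (-1.04), as was ATXN1L (-0.62), whose counts equal those of another gene ID. PANK2 was slightly higher (0.17), a call lost without any 1 of knockout replicates 1, 2 and 3 or wild type replicates 1 and 2, and PHF8 did not pass (0.05). A pair with 3 bases between, the spacing of the classic vitamin D response element, was found in 23 windows, none of a gene changed at least 2-fold, and a pair with 4 bases in 26, of which PARVB (-2.64) and ARFRP1 (-1.37) were at least 2-fold lower. The spacing of 5 bases was chosen after these values were seen, and a match is a description of letters, not a site shown to be bound.

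Retinoic acid, the hormone form of vitamin A, acts through receptors that share the retinoid X receptor partner with VDR. Among 14 tested genes of retinoid metabolism and receptors, 6 were higher and 6 lower, and all 6 higher ones were at least 2-fold so. The shares over all genes tested were 35.5% higher, 9.98% at least 2-fold higher, and 34.2% lower. CYP26A1, whose enzyme degrades retinoic acid, was at 0, 0 and 0.0845 CPM in wild type and 1.74, 2.85 and 1.74 CPM in knockout cells, from 1 count against 94, a ratio of 71 (95% interval 12.4 to 2830, for counting error only). Without wild type replicate 3, which holds that count, CYP26A1 has no wild type count. RARB, a retinoic acid receptor gene, was at 0.172, 0.274 and 0.676 CPM against 3.99, 4.13 and 2.88 CPM (3.24 ± 0.38, adjusted p = 9.54e-07, and 3.98 without wild type replicate 3). Both are low in counts, and every knockout library lay above every wild type library. Among these libraries CYP26A1 and RARB reached the count filter through the knockout alone. Their place among the 6 higher genes is therefore no support for a rise of the list. STRA6, which encodes a membrane receptor for the blood's retinol carrier, went from 3.88, 5.03 and 3.63 CPM to 31.1, 26 and 26.4 CPM (2.74 ± 0.14, adjusted p = 7.39e-11). The retinaldehyde reductase gene DHRS3 stood at 27.5, 27.5 and 33.3 CPM against 76.1, 86.5 and 81.3 CPM (1.46 ± 0.09), and the retinol dehydrogenase gene DHRS9 was higher (2.33 ± 0.21). ALDH1A3, whose enzyme makes retinoic acid, was lower, at 2109, 2186 and 2296 CPM against 824, 797 and 793 CPM (-1.45 ± 0.07, adjusted p = 4.97e-11), and so was CYP26B1 (-0.58 ± 0.13). Enzymes on the same pathway thus moved apart, with CYP26A1 higher and CYP26B1 lower.

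The 20 largest rises, among genes whose higher group averaged 5 CPM or more and whose libraries did not overlap, held 10 protein-coding genes and 4 lncRNA genes. After TRIM31, the protein-coding genes were led by BMP3, a secreted member of the bone morphogenetic protein family, at 0.345, 0.274 and 1.18 CPM in wild type and 12.1, 10.3 and 11.9 CPM in knockout cells (4.21 ± 0.30, and 5.16 without wild type replicate 3). GRHL3, a transcription factor of the epidermal barrier, went from 2.16, 1.28 and 1.52 CPM to 20.2, 20.8 and 20 CPM (3.61 ± 0.15, adjusted p = 8.42e-12). COL8A1, a short-chain collagen gene, went from 2.16, 1.92 and 2.62 CPM to 24.2, 26.1 and 28.2 CPM (3.54 ± 0.14). OLR1, the receptor for oxidised low-density lipoprotein, had the smallest adjusted p of all genes tested (6.76e-14), at 19.7, 19.1 and 19 CPM against 182, 182 and 191 CPM (3.26 ± 0.08). In all 4 genes the knockout libraries lay close together and far above wild type. CAPS2 (3.45), ANKRD22 (3.36), IGFN1 (3.33), the hexosamine pathway gene GFPT2 (3.30) and RDM1 (3.88) were also among them. The lncRNA genes were RP11-275N1.1 (4.17), RP11-519G16.3 (3.90), RP11-286B14.2 (3.86) and RP11-356O9.2 (3.35). Small RNA genes of the U1 and U3 families and HIST2H3DP1 complete the 20. They have near-identical copies, and HIST2H3DP1 rests on 1 knockout library at 133 CPM beside 2.64 and 1.74 CPM.

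On chromosome 14, 3 neighbouring genes were higher together. RP11-356O9.2 (chr14:37556158-37567095) went from 0.948, 0.823 and 1.27 CPM to 10.2, 9.23 and 11.9 CPM. TTC6 (chr14:37595847-38041442) went from 2.33, 1.37 and 2.45 CPM to 23.1, 20.1 and 23.8 CPM (3.43 ± 0.17). FOXA1, which encodes a pioneer transcription factor (chr14:37589984-37596059) and was looked up after its neighbours' values were seen, went from 10.2, 10.1 and 10.1 CPM to 41, 40.02 and 38.9 CPM (1.98 ± 0.10, adjusted p = 5.91e-11). TTC6 and FOXA1 overlap at their starts on opposite strands, and how strand entered the counting is not stated, so reads of the 2 genes cannot be told apart there. MIPOL1, the next counted gene, was at -0.26 ± 0.09, a call lost without wild type replicate 3 or knockout replicate 1.

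Among the 20 largest falls, 15 were protein-coding. Beyond TAGLN, DIAPH2, a formin that builds actin filaments, went from 8.88, 10.7 and 12 CPM to 0.193, 0.0751 and 0.18 CPM (-6.01 ± 0.30). SHANK2, a scaffold protein gene, went from 27.9, 26.4 and 21.6 CPM to 0.773, 0.676 and 0.54 CPM (-5.24 ± 0.20). SPRR2D, a small proline-rich protein of the cornified envelope, was at 6.81, 10.3 and 6.59 CPM in wild type and had 2 counts in all in knockout cells, both in replicate 3, a ratio of 179 (95% interval 49 to 1480, for counting error only). These genes were near 0 in all 3 knockout libraries. ADAMTS15, a secreted metalloprotease gene, went from 16, 18.6 and 16.7 CPM to 1.22, 1.13 and 0.841 CPM (16-fold lower, adjusted p = 2.03e-11). IL1RL1, the receptor of interleukin 33, was at 22.1, 12.2 and 6.76 CPM against 0.58, 0.526 and 0.661 CPM (-4.51 ± 0.74), with a wide spread in wild type cells. KRT17, a keratin of hair follicles and injured epidermis, went from 628, 682 and 431 CPM to 59.5, 66.2 and 60.3 CPM (-3.23 ± 0.17, adjusted p = 6.87e-09). SH2D5 (-4.37), TNFRSF6B (-3.67 and -2.95), RIBC2 (-3.57), the acid-sensing channel gene ASIC2 (-3.34), IFITM10 (-3.31) and GPSM1 (-3.17 and -2.41) fell too, as did the noncoding genes CTB-60B18.15 (-3.79 and -3.16), RP13-631K18.5 (-3.68), CTD-3051D23.4 (-3.31) and MIR711 (-3.43). RNU1-7 and GTF2IRD2 also met the rule, but their wild type levels varied from 1.29 to 1922 CPM and from 0.169 to 58.6 CPM, and both have near-identical copies.

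Genes of basal keratinocytes, which anchor the epidermis to its basement membrane, were lower almost throughout. Of 25 tested, 23 were lower and 1 higher, and 13 were at least 2-fold lower. Among all genes tested 34.2% were lower, 35.5% higher and 9.38% at least 2-fold lower. The median log2 fold change was -1.04, and -0.91 with the GC trend removed, when 23 were lower, 10 of them at least 2-fold, and none passed as higher. KRT14, the main basal keratin, was at 367, 365 and 271 CPM in wild type and 107, 104 and 111 CPM in knockout cells (-1.64 ± 0.10, adjusted p = 6.32e-10). Its partner KRT5 was lower as well (-1.16 ± 0.11). The integrin pair of the hemidesmosome fell, ITGA6 from 903, 893 and 564 CPM to 265, 241 and 208 CPM (-1.72 ± 0.15) and ITGB4 as well (-1.93 ± 0.09, and -1.31 with the GC trend removed). PLEC, which ties that integrin to keratin (-2.33 and -1.56), COL7A1, of the anchoring fibrils (-2.11 and -1.43), and COL17A1 (-1.17) were lower. So was TP63, the master regulator of stratified epithelium (-0.83 ± 0.11).

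Of the other 13 keratins tested, 9 were lower and none passed as higher, against 34.2% and 35.5% of all genes. KRT6A, a keratin of activated epidermis with close paralogs, was at 217, 224 and 169 CPM against 43.3, 41.3 and 43.6 CPM (-2.25 ± 0.09), and KRT86 (-2.94), KRT4 (-2.56) and KRT13 (-1.03) fell. The simple epithelial keratins KRT7 and KRT19 were lower by 0.75 and 0.66 on the log2 scale, but stood at -0.17 and -0.12 with the GC trend removed. With that trend removed 6 of the 13 were lower, and the list's median went from -0.75 to -0.17.

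Late differentiation genes did not move as 1 group. Of 13 genes of the cornified envelope, 10 were lower and 3 higher (median -0.90, and -0.52 with the GC trend removed). SPRR1B was at 16.1, 16.2 and 9.72 CPM against 2.38, 0.826 and 1.74 CPM (-3.05 ± 0.28), and SPRR2A (-4.28, and -5.06 without knockout replicate 2), the envelope precursor involucrin, IVL (-1.17), and the envelope plakin PPL (-1.05) were lower. The SPRR genes are close copies of each other, so their reads may be split uncertainly. FLG, which encodes filaggrin, the protein that bundles keratin in the granular layer, was higher, at 3.28, 2.93 and 2.11 CPM against 7.6, 8.11 and 8.47 CPM (1.54 ± 0.19), as was the protease inhibitor gene CSTA (1.62 ± 0.14). Of 24 transcription factors of differentiation tested, 14 were higher, 10 of them at least 2-fold, and 9 lower (median 0.50, and 0.89 with the GC trend removed). Over all genes tested 35.5% were higher, 9.98% at least 2-fold, and 34.2% lower, so the lower share is near that of all genes. ELF3, an epithelial ETS factor, was at 4.57, 5.76 and 5.83 CPM against 38.2, 32.4 and 38.7 CPM (2.76 ± 0.15, adjusted p = 9.12e-11). Its relative EHF (1.85), OVOL1 (1.82) and PRDM1 (1.45) were higher beside GRHL3. SOX9, a factor of hair follicle stem cells, was lower (-2.62). Without any 1 of wild type replicates 1 and 2 or knockout replicate 2 this list held 1 gene at least 2-fold lower instead of 2.

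Cell junction genes were called in both directions, as 35.5% (higher) and 34.2% (lower) of all genes tested were. Of 18 tested genes of desmosomes and adherens junctions, 4 were higher and 9 lower. DSP, the plakin of desmosomes, went from 92.2, 92 and 58.2 CPM to 24.4, 22.5 and 26.2 CPM (-1.73 ± 0.18), and PKP3 fell (-1.65 and -0.90), while the desmosomal cadherin DSG3 (1.05) and CTNND1 (1.08) were higher. Of 22 genes of gap and tight junctions 10 were higher and 7 lower. The tight junction genes TJP3 (2.19 and 2.79), CLDN16 (3.11) and CLDN4 (0.88) were higher, in contrast to GJB2 and GJB6. Without wild type replicate 3, 5 instead of 2 of these 22 were at least 2-fold lower.

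Genes of the actin cytoskeleton were mostly lower, beside TAGLN. Of 25 actin-binding and contractile genes, 19 were lower, 9 of them at least 2-fold, and 3 higher (median -0.63, and -0.48 with the GC trend removed). Among all genes tested 34.2% were lower, 9.38% at least 2-fold, and 35.5% higher. ACTB, the main cytoplasmic actin, was at 2864, 2776 and 1512 CPM in wild type and 692, 684 and 731 CPM in knockout cells (-1.76 ± 0.19, adjusted p = 6.18e-06). Wild type replicate 3 was well below the other wild type libraries, and still above all knockout libraries. ACTG1 (-2.19), the focal adhesion gene TGFB1I1 (-1.78), the myosin light chain gene MYL9 (-1.28) and tropomyosin 1, TPM1 (-1.15), were lower, and MYLK, the kinase of that light chain, was higher (0.54).

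Plasminogen activation and matrix proteases were lower in 16 of 22 tested genes and higher in 3 (median -0.86, and -0.53 with the GC trend removed). MMP10 (-3.75), the collagenase gene MMP1 (-2.25), ADAM19 (-2.92) and MMP7 (-2.67) were at least 2-fold lower. PLAU, the urokinase gene, went from 66.6, 72.5 and 67.4 CPM to 33.8, 37.5 and 34 CPM (-0.97 ± 0.08), while PLAT, the tissue-type activator, was higher (1.40 ± 0.12). The 2 activators of plasminogen thus stood on opposite sides of wild type. Among 21 mesenchymal and matrix genes 6 were higher and 12 lower, against 35.5% and 34.2% of all genes. THBS1 (-2.12), COL18A1 (-2.13 and -1.35) and COL6A1 (-2.30 and -1.68) were among the lower.

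**Figure D3:**
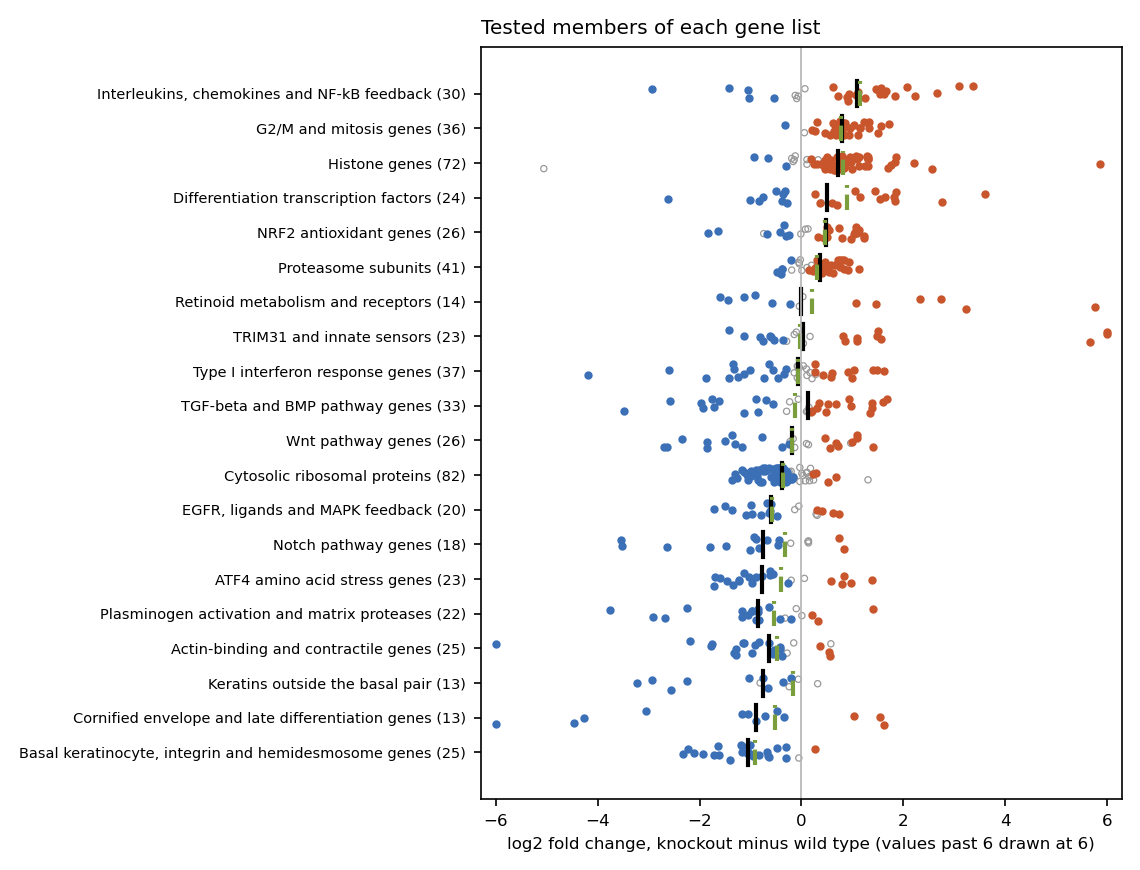
Each point is a tested member of a gene list (number tested in brackets), placed by its log2 fold change, orange where higher, blue where lower and open grey where it did not pass the test; values past 6 are drawn at 6, black bars are list medians and green dashed bars the medians with the GC trend removed. The basal keratinocyte list has its median at -1.04 and the interleukin list at 1.09, and both stay on their side of 0 with the GC trend removed (-0.91 and 1.16).

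Signalling genes of the epidermis were taken by pathway, first that of EGFR. EGFR, the receptor that drives keratinocyte growth, was at 1449, 1442 and 1338 CPM in wild type and 538, 572 and 521 CPM in knockout cells (-1.37 ± 0.08, adjusted p = 3.12e-10). Of 20 genes of EGFR, its relatives, ligands and feedback inhibitors, 12 were lower and 4 higher (median -0.60), against 34.2% and 35.5% of all genes. The MAPK phosphatase genes DUSP5 (-1.71) and DUSP4 (-1.50) and the ligand gene NRG1 (-0.99) were lower. Downstream factors FOSL1 (-2.45) and MYC (-1.25) fell as well. Yet of 13 AP-1 and immediate early genes only 5 were lower and 3 higher, against the same shares of all genes. With the GC trend removed these counts were 4 and 5.

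Of 18 Notch pathway genes 12 were lower and 2 higher, with a median of -0.76, which was -0.33 with the GC trend removed, when 10 were lower and 4 higher. The receptor gene NOTCH3 went from 1.64, 1.37 and 1.86 CPM to 0.0644, 0.3 and 0.06 CPM (-3.53 ± 0.45, and -4.51 without knockout replicate 2), and the ligand gene JAG2 (-1.49 and -0.84) and the receptor-modifying MFNG (-3.55, and -4.60 without knockout replicate 3) fell, while the target gene HES1 was higher (0.83). Of 26 Wnt genes 12 were lower and 8 higher, against 34.2% and 35.5% of all genes. The ligand genes WNT7A (-2.35) and WNT5B (-2.70) and the secreted inhibitors DKK1 (-1.50) and DKK3 (-1.37) were at least 2-fold lower, and WNT4 was higher (0.68). Of 33 genes of the TGF-beta and BMP pathways 14 were higher and 12 lower, against 35.5% and 34.2% of all genes. FST, an activin antagonist (-2.58), INHBA, an activin subunit (-1.12), and BMP7 (-1.97) were lower, and the ligand gene TGFB2 (1.60) and the BMP target genes ID1 (1.69) and ID2 (1.39) were higher.

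Inflammatory mediators were mostly higher. Of 30 tested interleukin, chemokine and NF-kB feedback genes, 21 were higher, 16 of them at least 2-fold, and 5 lower (median 1.09, and 1.16 with the GC trend removed). Among all genes tested 35.5% were higher, 9.98% at least 2-fold, and 34.2% lower. TNF, the founding cytokine of its family, was at 1.81, 0.731 and 1.01 CPM in wild type and 9.86, 10.6 and 10.4 CPM in knockout cells (3.10 ± 0.23, adjusted p = 5.63e-09). IL1A, an alarm cytokine stored in keratinocytes, went from 12.9, 12.7 and 14.5 CPM to 37.4, 43.7 and 42.6 CPM (1.62 ± 0.18), and IL18 from 79.6, 76.1 and 82.9 CPM to 229, 224 and 226 CPM (1.51 ± 0.07). All 3 separated the groups without overlap. The chemokine genes CXCL3 (2.67) and IL8, now CXCL8 (1.47), the cytokine gene IL6 (1.55) and NFKBIA, the inhibitor that NF-kB itself induces (1.67), were higher. Another NF-kB feedback gene, TNFAIP3, did not pass (-0.12 ± 0.07, adjusted p = 0.147, and 0.0212 without wild type replicate 3). IL11 (-2.93) and PTGS2, the inducible cyclooxygenase (-1.05), were lower.

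Innate sensors and interferon genes included calls in both directions. Over all genes tested 35.5% were higher, 9.98% at least 2-fold, and 34.2% lower. Of 23 genes of TRIM31 and innate sensing 10 were higher, 8 at least 2-fold, and 8 lower. The RNA sensor TLR3 (1.51), the inflammasome protease CASP1 (1.57) and TMEM173, now STING1 (1.49), were higher. The inflammasome sensor NLRP1 (-1.42) and the adaptor PYCARD (-1.12) were lower. TLR1 and TLR6, which are near-identical neighbours, carried the same counts, 73 in knockout and none in wild type libraries (at least 18.4-fold higher), so their reads cannot be told apart. Both are nevertheless counted among the 10 higher genes and the 8 at least 2-fold higher. Among these libraries both reached the count filter through the knockout alone. Of 37 type I interferon response genes 15 were lower and 11 higher, with MX2 (-4.20), BST2 (-1.88), MX1 (-1.32) and ISG15 (-1.12 and -0.50) lower and IFI44 (1.63) and IFIT1 (1.03) higher. Of 25 antigen presentation genes 10 were higher, or 16 with the GC trend removed, and 5 lower, a count that was 2 without wild type replicate 1 or 2, 3 without knockout replicate 2 and 10 without wild type replicate 3. CIITA, the master regulator of class II genes, was at 12.3, 10.7 and 12.6 CPM against 62, 58.7 and 63.3 CPM (2.37 ± 0.10), and its targets HLA-DMB (3.04) and HLA-DMA (1.38) were higher, while CD74, the class II invariant chain, was lower (-2.38). S100 and antimicrobial genes included both directions too: of 15 tested, 5 were higher and 8 lower. The antimicrobial gene RNASE7 (-2.49) and the S100 gene S100A2 (-1.74) were lower, and S100A8 (1.36) was higher.

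Mitotic genes were higher in nearly every case. Of 36 G2/M and mitosis genes 33 were higher, 11 at least 2-fold, and 1 lower (median 0.79, and 0.77 with the GC trend removed). For these and the S phase genes below, the shares of all genes were 35.5% higher, 9.98% at least 2-fold higher, and 34.2% lower. CDK1, the kinase that drives entry into mitosis, went from 84.6, 87.5 and 102 CPM to 201, 223 and 225 CPM (1.24 ± 0.08, adjusted p = 1.49e-09). NUF2, of the kinetochore, went from 53.4, 43.3 and 57.8 CPM to 185, 154 and 175 CPM (1.73 ± 0.10). The phosphatase gene CDC25C (1.57), the spindle motor KIF11 (1.50), AURKB (0.88) and PLK1 (0.65) were higher, and MKI67 did not pass (0.69 ± 0.28, adjusted p = 0.0517, but adjusted p = 0.00125 without knockout replicate 3). In S phase genes the differences were smaller: of 42 tested, 23 were higher and 12 lower, and 1, E2F2 (1.82), was at least 2-fold higher, or 2 without wild type replicate 3. CCND1, the cyclin of early G1, was lower, at 359, 372 and 266 CPM against 125, 131 and 117 CPM (-1.42 ± 0.10), and the kinase inhibitor gene CDKN2C was higher (1.78). Growth rates and cell densities were not among the data used here.

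Histone genes were higher in 59 of 72 tested and lower in 3, or 7 without wild type replicate 3 (median 0.72, and 0.81 with the GC trend removed), with 19 at least 2-fold higher. Among all genes tested 35.5% were higher, 34.2% lower and 9.98% at least 2-fold higher. HIST1H1A, a linker histone gene, went from 7.59, 8.78 and 8.2 CPM to 27.5, 27.6 and 33.3 CPM (1.85 ± 0.11), and HIST1H3E was higher (2.57). Most histone RNAs have no poly(A) tail and near-identical copies, so their level depends on how RNA was selected and on how reads with several matches were counted, neither of which is given. HIST2H2AA3 stood high in 1 knockout library alone, at 112 CPM.

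Ribosomal protein genes were mostly lower and proteasome genes mostly higher, by small amounts. Of 82 cytosolic ribosomal protein genes 59 were lower (median -0.39, and -0.37 with the GC trend removed), and 4 higher, 7 without knockout replicate 1 and 12 with library size as the scaling. At least 2-fold lower were 7, 3 without wild type replicate 1 and 13 without wild type replicate 3, among them RPS19 (-1.31) and RPLP1 (-1.26). Mitochondrial ribosomal protein genes, 76 tested, had 25 higher and 23 lower, near the shares of all genes tested (35.5% and 34.2%), or 14 lower with library size as the scaling. Of 41 proteasome subunit genes 29 were higher and 5 lower (median 0.36), with 3 lower without knockout replicate 2, without wild type replicate 1 or with the GC trend removed. Of 76 nuclear-encoded respiratory chain genes 40 were higher and 17 lower, or 39 and 10 with the GC trend removed.

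Genes of amino acid supply under ATF4, the stress factor of amino acid shortage, were lower in 16 of 23 tested and higher in 5 (median -0.78, and -0.40 with the GC trend removed). The serine synthesis gene PSAT1 went from 361, 338 and 344 CPM to 142, 148 and 155 CPM (-1.23 ± 0.07), and asparagine synthetase, ASNS (-1.22), CBS (-1.59) and PCK2 (-1.70) were lower. ATF4 itself (0.58), DDIT3 (0.84) and the cystine transporter gene SLC7A11 (0.97) were higher. NRF2 antioxidant genes were higher in 15 of 26 and lower in 7, or in 16 and 4 with the GC trend removed. TXNRD1, thioredoxin reductase, went from 178, 168 and 219 CPM to 388, 417 and 406 CPM (2.14-fold higher, adjusted p = 9.88e-09). GCLM (1.13), of glutathione synthesis, and AKR1C2 (1.24) were higher, and the aldehyde dehydrogenase gene ALDH3A1 (-1.84) and the exporter gene ABCC3 (-1.64) lower. Of 30 glycolysis and hypoxia genes 8 were higher and 12 lower, against 35.5% and 34.2% of all genes, with VEGFA (-1.73) and HK2 (-1.38) lower and EGLN3 (1.53) higher. Of 34 genes of cholesterol and fatty acid synthesis 12 were higher and 15 lower, against 35.5% and 34.2% of all genes. Lower were the fatty acid genes FASN (-1.54 and -0.84) and SCD (-1.18).

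Genes were also counted by type, and lncRNA genes, which the series title is about, are set beside protein-coding genes. Of 1491 lncRNA genes tested, 411 (27.6%) were at least 2-fold higher and 86 (5.77%) at least 2-fold lower, with a median log2 fold change of 0.50. Of 11754 protein-coding genes, 862 (7.33%) were at least 2-fold higher and 1101 (9.37%) lower, with a median of -0.02. With the GC trend removed 449 lncRNA genes were at least 2-fold higher and 67 at least 2-fold lower, with a median of 0.59. By kind, of 822 antisense genes 227 (27.6%) were at least 2-fold higher and 31 (3.77%) lower, and of 438 lincRNA genes, which lie between other genes, 140 (32%) and 35 (7.99%). Antisense genes share their position with another gene, and without the strand their reads cannot be told apart from that gene's. Small nuclear RNA genes were at least 2-fold higher in 20 of 41 (48.8%) and at least 2-fold lower in 5, with a median of 1.19. Small nucleolar and Cajal body RNA genes were at least 2-fold higher in 3 of 115 (2.61%) and at least 2-fold lower in 20 (17.4%), with a median of -0.55. The difference between these types was not tested. Short RNAs are caught unevenly in RNA libraries, and how RNA was selected here is not given.

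Of 30 tested lncRNAs with a known regulatory role, 16 were higher and 7 lower, against 35.5% and 34.2% of all genes. At least 2-fold were 6 of the higher and none of the lower. Without knockout replicate 2 or wild type replicate 3, 1 was at least 2-fold lower. LINC00657, now NORAD, which holds Pumilio proteins, went from 84, 84.4 and 73 CPM to 225, 203 and 227 CPM (1.44 ± 0.09). UCA1 (1.43), MIR205HG, the host of a microRNA of stratified epithelium (1.08), and FLG-AS1, which overlaps FLG (2.57), were higher. NEAT1, the scaffold of paraspeckles (-0.76), and PVT1 (-0.92) were lower, and MALAT1 did not pass (0.16 ± 0.11, adjusted p = 0.213, and 0.0232 without knockout replicate 2).

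**Figure D4:**
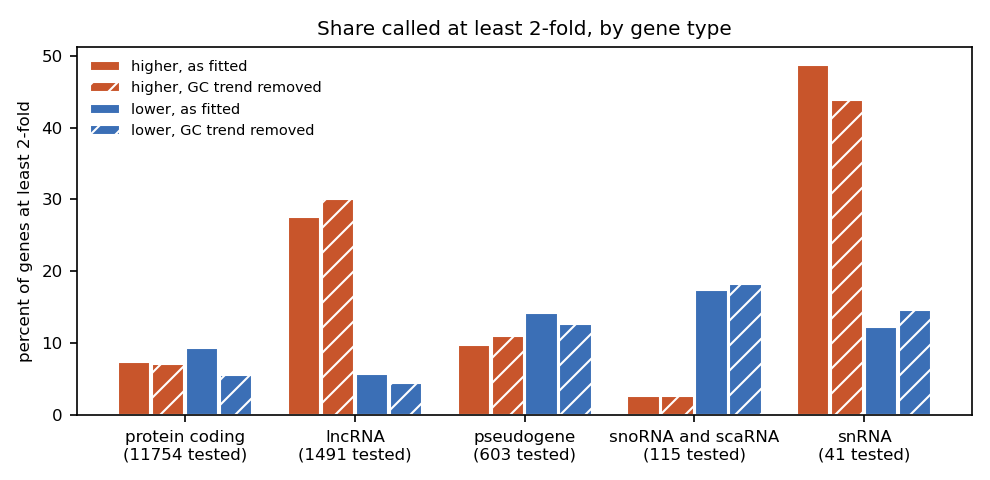
Bars give the percent of tested genes of each type that were at least 2-fold higher (orange) or lower (blue) in knockout cells, plain as fitted and hatched with the GC trend removed, with the number tested under each type. For lncRNA genes the higher bar is at 27.6% and the lower at 5.77%, for protein-coding genes 7.33% and 9.37%.

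The authors' deposited tables for this comparison list gene ontology terms among genes they selected. Their table of lower genes, whose matched genes were lower here in 99.7%, held 212 terms, 142 of them with the authors' adjusted p below 0.05. In the authors' deposited table anchoring junction had 219 of the 3548 genes listed (adjusted p as the authors give it, 5.32e-13), ribosome biogenesis 162 of 3405 (2.77e-10) and extracellular matrix 108 of 3548 (4.51e-08). The authors' deposited table of higher genes, of which 99.5% were higher here, held 59 terms, 51 below 0.05, with protein-DNA complex assembly at 91 of 3062 listed genes (5.42e-06), G2/M transition of mitotic cell cycle at 105 of 3062 (9.98e-06) and nuclear division at 137 of 3062 (1.05e-05). These tables come from the same 6 libraries and are not independent of the counts above.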

How the data were processed

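RNA of 12 HaCaT libraries was counted per gene by the authors, who deposited raw counts for 16271 human gene IDs with symbols, and enrichment tables that give each term a p-value, an adjusted p-value and other values (numbers of listed genes), per the file headers. The submitters' processing notes name BWA 0.5.9 and mm9, a mouse build. All gene IDs are human, and the build, annotation and counter that were used are not stated in the sources at hand. Groups came from the labels. Positions, types and GC came from GENCODE v29 (GRCh38), which held 15524 IDs and lacked 747, and promoters from RefSeq (GRCh38.p14). In R 4.3.3, edgeR 4.0.16 (TMM, factors 0.95 to 1.057; filterByExpr, leaving out 1595 genes; robust quasi-likelihood F test) was fitted to all 12 libraries in 4 groups, which share 1 estimate of spread (dispersion 0.0117), with Benjamini-Hochberg adjustment over 14676 genes. The 6 treated libraries enter only that estimate. SE is the log2 fold change divided by the root of F. CPM are scaled by TMM, and 808 tested genes have counts equal to another gene's. Removal of the GC trend used a lowess curve per library (span 0.3) as an offset. Total counts, 11.49 to 15.99 M (1e6) per library, set the counting error. Intervals (95%, exact binomial) and the floor of 3 counts cover counting error only. Named were VDR, CYP24A1, CYP27B1, TRIM31, TAGLN, GJB6, the 20 largest rises and 20 largest falls, and preset or, up to 4 a list, the largest members of 55 lists. Some genes that meet this rule are not reported here. Exceptions are said to be chosen after their values were seen. The members and lists were chosen with earlier results of these data known. The fit was tested on simulated data. Alternatives were other scalings, filters, DESeq2 1.42.0, a threshold of 0.01, the untreated libraries alone, a replicate block, each library left out, and GC or span removal.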

Additional observations from a re-analysis of the deposited data

How the results depend on the processing

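The 5207 higher and 5019 lower genes became 4821 to 5447 and 4648 to 5259 when each library was left out in turn, and the genes at least 2-fold higher or lower became 1407 to 1657 and 1254 to 1606, the highest of each without wild type replicate 3. DESeq2 called 4913 and 5066, and 1409 and 1415 at least 2-fold. RLE scaling called 5063 and 5147, library size scaling 6224 and 4085, no filter 5374 and 5145, and a stricter filter 5172 and 4985. An adjusted p below 0.01 left 4412 and 4260, and the untreated libraries alone gave 4754 and 4563. With the GC trend removed 895 genes instead of 1376 were at least 2-fold lower, and 884 with a trend over gene span removed as well. Without wild type replicate 3 the same removal gave 1632 higher and 1042 lower at least 2-fold. These GC alternatives were chosen after seeing the data, and the cause of the trend was not tested.

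Of the 211 genes named with a value, 206 were called, and 204 of these kept direction and call in each of the 14 settings, GC removal apart, that tested them. PANK2 and MIPOL1 lost the call in some, and TNFAIP3, MALAT1 and MKI67 gained one. KRT19 was the 1 named gene whose call ended with the GC trend removed. The labels do not say whether replicate numbers pair the libraries. The correlations of same-numbered deviations were 0.02, 0.08 and 0.12, against -0.12 to 0.04 for different numbers, which does not settle it. With a replicate block 5139 genes were higher and 4932 lower, 1461 and 1360 at least 2-fold, and in the untreated libraries alone 4901 and 4742. Under a block PANK2 lost its call, and in the untreated libraries alone MIPOL1 lost its call and MKI67 gained one (0.67, adjusted p = 5.62e-05). All libraries but knockout replicate 1 correlated best with their own number, a hint from the data and not from the design. Depth limits genes near 0, such as GJB6 and CYP26A1, to a bound or a wide interval, and 1.5-fold changes were recovered less often than larger ones on simulated counts.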

Other observations

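Position along the genome was looked at in windows of 41 neighbouring protein-coding genes, with the GC trend removed. Over all such windows the median was 0.01, with 5th and 95th percentiles of -0.24 and 0.26. The window of highest median, 0.81, lay on chromosome 6 from SOX4 to HIST1H3J, a stretch that holds part of the histone cluster. In it 35 of 41 genes had a log2 fold change above 0, whether called or not. On chromosome 12 the window from NECAP1 to PIK3C2G, which also holds OLR1, had a median of 0.61, with 31 of 41 genes above 0, called or not. The lowest window, on chromosome 8 from ZFP41 to VPS28, had a median of -0.50, and -1.12 as fitted. The windows were picked by their own values and have no test.

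By chromosome, the median of protein-coding genes was -0.34 on chromosome 19 and -0.38 on chromosome 22 as fitted, and -0.04 and -0.09 with the GC trend removed. On chromosome 6 it was 0.14 and 0.13.

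Other families are given beside the 35.5% of all genes tested that were higher and the 34.2% that were lower. Of 33 semaphorin, ephrin and guidance receptor genes, 17 were lower and 5 higher, with the plexin genes PLXND1 (-2.05, and -1.45 with the GC trend removed), PLXNA1 (-1.74) and PLXNB1 (-1.57) lower, and with the GC trend removed 13 were lower and 10 higher. Of 20 HOX genes 7 were higher and 4 lower, with HOXA2 (3.07) and HOXA3 (1.57) at least 2-fold higher. Of 14 lipid barrier genes 7 were higher, among them the lipid transporter gene ABCA12 (1.45), and 5 lower, among them ALOXE3 (-2.13), FABP5 (-1.54) and SULT2B1 (-1.48). Of 420 ZNF zinc finger genes 164 were higher and 102 lower, 27 and 20 at least 2-fold, and without wild type replicate 3, 43 were at least 2-fold higher. With the GC trend removed 141 of them were higher and 114 lower, 17 and 9 at least 2-fold. Their median went from 0.12 to 0.03. Of 197 solute carrier genes 68 were higher and 81 lower, with SLC2A12 (3.06), SLC9A9 (2.52) and SLC1A3 (2.51) among the higher. Of 18 kallikrein, serpin and inhibitor genes 7 were higher and 7 lower, with SPINK5 (1.69) and KLK11 (1.28) higher and KLK7 (-1.05) and SERPINB2 (-1.08) lower. At least 2-fold lower were 4 of these 18, but 1 or 2 without any 1 of knockout replicates 1 and 2 or wild type replicates 1 and 2.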
